A study of Pan troglodytes with 38 samples.

Results

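The sarcomere genes described here are 10 of the 31373 genes in the chimpanzee gene count table, of which 18040 carry a symbol. They were taken by name, with no cut on their values. They comprise the 4 pairs of isoform genes MYH6 and MYH7, ACTA1 and ACTC1, TNNI1 and TNNI3, and TNNT1 and TNNT2, together with MYBPC3 and TTN, and all 10 had a row. Every member was counted in each of 38 hearts.

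The sarcomere is the contractile unit of the heart muscle cell. Myosin heavy chains form its thick filament, actin with the troponins forms its thin filament, and titin acts as a spring. Several of these proteins have a second gene whose product differs in speed or calcium response. Slow skeletal troponin I (TNNI1) is known as the fetal cardiac form that TNNI3 replaces, while MYH6 is the fast myosin of atria and MYH7 the slow myosin of the ventricles of large mammals. Skeletal actin (ACTA1) and slow skeletal troponin T (TNNT1) are paired here with ACTC1 and TNNT2.

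The samples form 1 group of 38 captive-born chimpanzees, with a single post-mortem library of polyadenylated heart RNA for each animal and no treatment compared by the study. The study's sample table notes a virus for 8 animals, all with RNA of 2018, of which 7 are given as positive for hepatitis B or C virus and 1 as exposed to HIV and negative, so year and virus history overlap. RNA of 17 animals (10 females, 7 males) was extracted in 2016 and RNA of 21 animals (12 females, 9 males) in 2018, and the libraries of these years also differ in having been published before or newly made, so these cannot be told apart. Age at death was given for 34 animals, between 10 and 57 years with a median of 32, and the RNA integrity number (RIN) was between 2.5 and 8.4 with a median of 5.9. RIN had a median of 6.2 (4.2 to 7.6) in RNA of 2016 and of 5.4 (2.5 to 8.4) in RNA of 2018. The animals of 2016 were also older at the median, so RIN and age were not balanced between the years. Some of the animals are close relatives, so the hearts are not fully independent, and the sampled part of the heart is not given in the sources used here.

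Totals on exons orthologous between human and chimpanzee were between 14408012 and 81603350 counts per heart with a median of 41226039. Levels are given in CPM, here a count of the gene count table scaled by that orthologous exon total of the heart. CPM is therefore not a share of the gene counts, and levels were higher than with the total of the gene counts. The median of MYH7 was 32998.9 CPM here and 20772.5 CPM with the total of the gene counts. The gap between these totals varied between hearts. The orthologous exon and gene totals were 18946174 and 62669620 in 537, and 54380181 and 75841794 in 4x523. The lowest count of any member in any heart was 14, for TNNI1 in 495, which by counting error alone is uncertain by 26.7%. All 10 cardiomyocyte markers examined were detected in all hearts, and their summed level was between 1386 CPM in Little_R and 13053 CPM in 503. Hearts 537 and Little_R stood apart, with the summed level of 8 fibroblast markers at 9639 and 10517 CPM against a median of 1890 CPM. Their mitochondrial shares were 60.1% and 48.3% of gene counts against a median of 30.4%, and 558, 529 and 4X0339 lay between them with 53.9%, 52.7% and 51.7%. In a bulk sample, fewer muscle cells and less RNA per muscle cell cannot be told apart. The 10 members took between 0.718% of the non-mitochondrial counts in Little_R and 10.3% in 503, with a median of 7.46%, and the next lowest share was 1.79% in 537.

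MYH7, ACTC1, TNNI3 and TNNT2 had the higher median count of their pair and are called the major partners here, and the other partner had the wider range between hearts. Ratios within a pair are ratios of counts and are not corrected for gene length. MYH7 had a median of 32999 CPM against 2149 CPM for MYH6, and ACTC1 had a median of 12877 CPM against 2187 CPM for ACTA1. TNNI3 was at a median of 3960 CPM and TNNI1 at 10.4 CPM. TNNT2 was at a median of 13547 CPM and TNNT1 at 48.4 CPM. The highest heart exceeded the lowest by 490-fold for ACTA1, 297-fold for MYH6, 185-fold for TNNI1 and 146-fold for TNNT1. For the major partners this range was 80.9-fold for MYH7, 35-fold for ACTC1, 20.6-fold for TNNI3 and 7.06-fold for TNNT2.

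**Figure D1:**
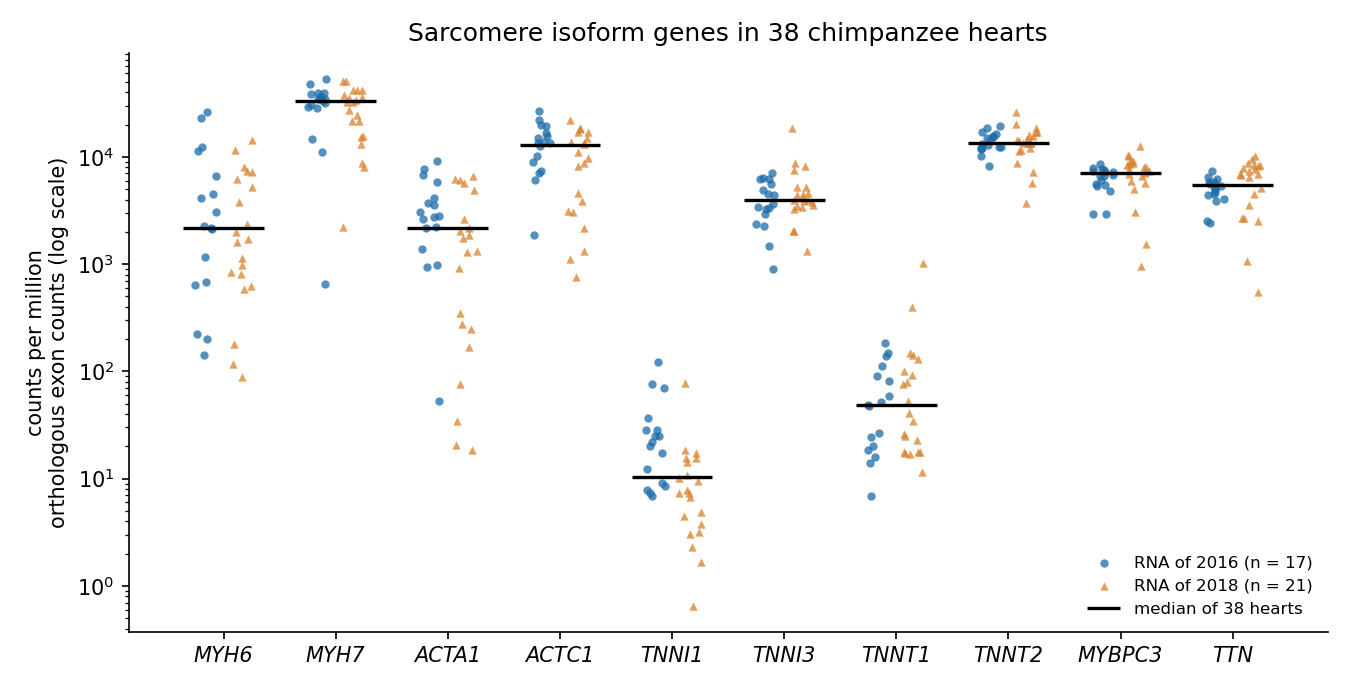
CPM of the orthologous exon total (log scale) of the 10 genes in 38 chimpanzee hearts, with blue circles for RNA of 2016, orange triangles for RNA of 2018 and bars for the median of all hearts. MYH6, ACTA1, TNNI1 and TNNT1 spread over 146-fold or more, and TNNT2 over 7.06-fold.

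Only levels per length can be set side by side between genes, and 6 members could be matched to the orthologous exon table, whose coordinates are on Pan_tro_3.0. On chromosome 14, minus strand, the orthologous exons of MYH6 lie between 7130303 and 7156530 and those of MYH7 between 7161007 and 7184046, with 4476 bases between the genes. ACTA1 lies on chromosome 1 between 208392003 and 208394842. TNNT2 (180205405 to 180224153) and TNNI1 (180262512 to 180282489) lie near each other on the same chromosome, and MYBPC3 lies on chromosome 11 between 47581418 and 47602725. In the gene order of another assembly, mPanTro3-v2.0, no protein-coding gene lies between MYH6 and MYH7 or between TNNI3 and TNNT1, and 1 (LAD1) lies between TNNI1 and TNNT2. Pairs of isoforms share sequence, so reads from near-identical stretches may be lost or assigned to the wrong partner. The log2 counts of the 6 genes in the 2 tables had r of 0.996 or more across the hearts.

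In RPKM, counts scaled by exon length and by the orthologous exon total, MYH7 led with a median of 6537, followed by TNNT2 at 2060.2, MYBPC3 (the myosin-binding protein C of heart) at 1907, ACTA1 at 1503, MYH6 at 369 and TNNI1 at 5.87. MYH7 was above TNNT2 in 36 of 38 hearts and MYH6 above TNNI1 in 37 of 38. TNNT2 was above MYBPC3 in 27 hearts, and MYBPC3 above ACTA1 and ACTA1 above MYH6 in 24 hearts each, so the order of these neighbours changed from heart to heart. The order between genes also rests on the annotated exon lengths, 7159 bases for TNNT2 and 3808 bases for MYH7. These can differ from the length of the transcripts made in heart, which was not tested, so the place of TNNT2 below MYH7 is uncertain.

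The myosin pair ranged from almost pure MYH7 to almost pure MYH6. Over 38 hearts, the log2 ratio of MYH6 to MYH7 counts was −3.65 ± 2.56 (SD), lowest at −7.91 in 4x0430, with a median of −3.82 and highest at 5.33 in 549. In 4x0430, MYH6 was at 144 CPM and MYH7 at 34543 CPM. MYH6 exceeded MYH7 in 2 hearts, which are 549 and 570. Per length, MYH6 made up a median of 5.91% of both myosins, less than 5% in 19 hearts, 50.1% in 570 and 96.7% in 549.

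Heart 549 lay apart from all others in this ratio, with a gap of 5.15 on the log2 scale to 570 at 0.17. Its MYH7 level of 652 CPM was the lowest of all hearts, and its MYH6 level of 26143 CPM and TNNI1 level of 122 CPM were the highest. The atrial markers moved with it. Summed over 14 atrial markers, 549 was at 54801 CPM and the other hearts were between 422 and 16861 CPM. BMP10, a growth factor of the atria, was at 5920.1 CPM in 549 and at most 1.32 CPM elsewhere, and the atrial myosin light chains MYL7 and MYL4 were at 12747 and 6878 CPM against at most 929 and 183 CPM elsewhere. The ventricular light chains MYL2 and MYL3 were at their lowest in 549, at 315 and 40.9 CPM against medians of 12455 and 7740 CPM. Their part in the myosin ratio was not tested.

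Heart 570, with nearly equal myosin counts, had a summed level of atrial markers of 948 CPM, below the median of 1405 CPM. It had MYH6 at 12449 CPM, MYH7 at 11042 CPM and the lowest TNNI3 level of all hearts, at 897 CPM. The third heart in order was 462, with a log2 ratio of −0.59, where MYH6 was at 23185 CPM beside 34804 CPM of MYH7. At the other end, MYH6 was at 88.1 CPM in 4X0354, at 116 CPM in 537 and at 144 CPM in 4x0430, while MYH7 in these hearts was at 15416, 8095 and 34543 CPM.

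**Figure D2:**
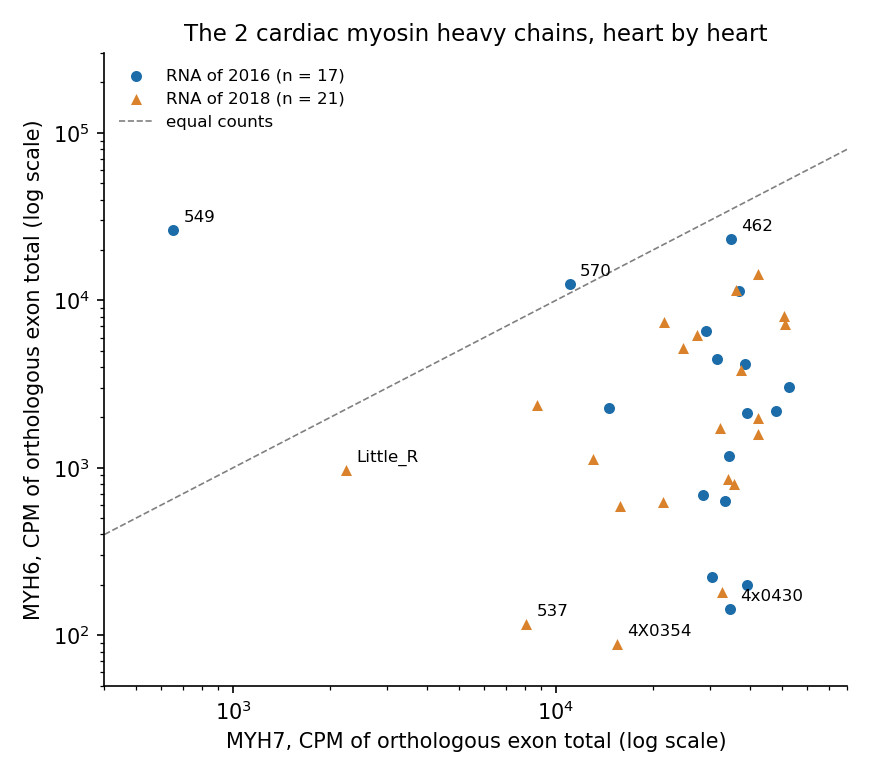
MYH6 against MYH7 in CPM of the orthologous exon total (both axes log scale), 1 point per heart, with a dashed line at equal counts. Heart 549 sits alone with MYH7 at 652 CPM and MYH6 at 26143 CPM, 570 sits near the line, and MYH6 spans 297-fold over the 38 hearts.

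The gene whose level followed the myosin ratio most closely was CMTM5, with r = 0.85 across 38 hearts and, chosen again without 549, also the first with r = 0.85. This is a description over 12489 expressed genes with a symbol, which share libraries and depth. CMTM5 was between 0.454 and 63.8 CPM with a median of 5.81 CPM, and it stood at 62.3 CPM in 549. In the gene order of mPanTro3-v2.0, no protein-coding gene lies between CMTM5 and MYH6. KCNK3 (r = 0.67) and SBK3 (r = 0.62) came next, both highest in 549, and ITGA9 (r = −0.65), HHAT (r = −0.64) and IRX6 (r = −0.63) were at the other end. Without 549, FURIN (r = 0.62) and HR (r = 0.62) followed CMTM5.

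In the actin pair, ACTC1 was the major form in all but 2 hearts. The log2 ratio of ACTA1 to ACTC1 was −2.78 ± 1.98 (SD, n = 38), lowest at −6.99 in 724, with a median of −2.26 and highest at 0.65 in 4X0354. ACTA1 counts exceeded those of ACTC1 in 2 hearts, which were 4X0354, with 4874 CPM of ACTA1 and 3116 CPM of ACTC1, and 4x0025, with 7685 and 7406 CPM.

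The ACTA1 to ACTC1 ratios left a gap of 0.757 on the log2 scale, with 10 hearts at −4.76 or below and 28 hearts at −4.01 or above. The 10 hearts comprised 2 of 2016 and 8 of 2018, and 7 females and 3 males. ACTA1 was between 18.7 CPM (Little_R) and 980.3 CPM (438) in these hearts and between 927 CPM (537) and 9155 CPM (522) in the others. ACTC1 overlapped widely, between 759.9 and 26616 CPM in the 10 hearts and between 2191 and 22115 CPM in the others. Hearts with little ACTA1 therefore included both 438, with the highest ACTC1 level of all, and Little_R, with the lowest.

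The genes most like the ACTA1 to ACTC1 ratio were MTCL1 (r = 0.72), SLC47A1 (r = 0.72) and XIRP2 (r = 0.72), a protein of muscle cell junctions and the Z-disc region. XIRP2 had a median of 435 CPM and reached 6607 CPM in 4x0025. Most unlike were CHDH (r = −0.66), FAM216B (r = −0.66) and PPP1R1A (r = −0.65). Of the skeletal muscle markers with a row, all but TNNT3 (fast skeletal troponin T) had a median under 1 CPM. MYH1, MYH2 and MYH4, the fast myosins of skeletal muscle, were at most 0.971, 0.579 and 0.475 CPM in any heart, and MYH4 was at 0 counts in 21 hearts. Of the 13 skeletal muscle markers with a row, 9 passed 1 CPM in some heart, and their sum was between 6.29 CPM in 338 and 336 CPM in 537. Of this, TNNT3 (fast skeletal troponin T) made up 323 CPM in 537.

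Troponin I was almost all TNNI3. TNNI1 made up a median of 0.283% of the counts of both genes, and the log2 ratio was −8.43 ± 1.79 (SD, n = 38), lowest at −13.42 in 4X0354, with a median of −8.46 and highest at −4.23 in 549. In 4X0354, TNNI3 was at its highest level of all hearts, 18520 CPM, and TNNI1 at 1.66 CPM. In 549, TNNI1 was at 122 CPM and TNNI3 at 2286 CPM. After 549, the TNNI1 level was highest in 4X0357 at 78.5 CPM, in 4x0519 at 75.7 CPM and in 95A014 at 69.5 CPM. The genes most like the ratio were KCNJ5 (r = 0.75), PPHLN1 (r = 0.74) and H2AZ2 (r = 0.72), and most unlike were PRSS50 (r = −0.81), HIGD1B (r = −0.75) and VIP (r = −0.73), all 3 of which were highest in 4X0354. KCNJ5 and PPHLN1 were highest in 549, and without 549 UBE2E2 (r = 0.78), ZNF710 (r = 0.76) and H2AZ2 (r = 0.76) led.

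Troponin T was almost all TNNT2, the least variable member. TNNT1 made up a median of 0.363% of the counts of both genes. The log2 ratio was −8.08 ± 1.72 (SD, n = 38), lowest at −10.80 in 338, with a median of −8.11 and highest at −3.50 in 554_2. TNNT1 was at 6.96 CPM in 338 and at 1015 CPM in 554_2, where TNNT2 stood at 11452 CPM. Heart 554_2 was separated by 1.69 on the log2 scale from the next, Little_R, whose TNNT1 level of 101 CPM stood beside the lowest TNNT2 level of all hearts, 3682 CPM. The second-highest TNNT1 level was 399 CPM, in 4X0357. Most like this ratio were KDELR3 (r = 0.65), GRIP2 (r = 0.64) and GNB3 (r = 0.63), and most unlike were APOB (r = −0.77), TMEM132B (r = −0.74) and PRDX6 (r = −0.69). Without 549, HTR4 (r = 0.70), PLEKHA6 (r = 0.67) and PIK3R6 (r = 0.65) led in place of the first 3, and APOB (r = −0.78) and TMEM132B (r = −0.74) were again the lowest.

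MYBPC3, which links and tunes the thick filament, and TTN, which encodes titin, have no isoform partner among these genes. MYBPC3 was between 957 CPM in Little_R and 12640 CPM in 4X0357, with a median of 7140.4 CPM. TTN was between 546 CPM in Little_R and 10095 CPM in 503, with a median of 5482 CPM. Little_R was among the 3 lowest hearts for 7 of the 10 members, 537 for 5 and 495 for 4. Each of these hearts lay below the median for 9 of the 10 members. TNNT1 went the other way in Little_R and 537, at 101 and 91.7 CPM against a median of 48.4 CPM.

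Levels and ratios were next compared with extraction year, sex, RIN and age at death. For levels, an edgeR quasi-likelihood test was fitted across all genes, and the Benjamini-Hochberg method adjusted p over all genes tested. Further terms were sex for year, year for sex, and both year and sex for RIN and for age. Of 15392 genes, 2433 (15.8%) passed an adjusted p of 0.05 between the years, 1713 higher and 720 lower in RNA of 2018. Of the 10 members, 1 passed. TNNI1 was lower in RNA of 2018, with a log2 fold change of −1.41 (SE 0.476, adjusted p = 0.0377, edgeR quasi-likelihood test). TNNI1 was between 6.83 and 122 CPM with a median of 21.9 CPM in the 17 hearts of 2016, and between 0.656 and 78.5 CPM with a median of 7.39 CPM in the 21 hearts of 2018, so the groups overlapped.

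That call depended on single hearts. Without 549, the log2 fold change of TNNI1 was −1.17 (adjusted p = 0.0692), and without 537 and Little_R it was −1.27 (adjusted p = 0.0731), both by edgeR. Leaving out each heart in turn, TNNI1 did not pass in 12 of 38 fits, which were those without 295, 495, 4x0043, 4X0333, 4X0339, 4X0354, 4x0519, 529, 537, 549, 558 or 95A014. Over all 38 fits its log2 fold change was between −1.81 and −1.17, and its adjusted p was at most 0.0692 (edgeR). In RNA of 2018, 4 of 12 tested atrial markers (MYL7, MYL4, SLN and MYBPHL) were also lower by edgeR, where 15.8% of all genes were called. The 3 tested of 5 listed adipocyte markers were higher, as were 2 of 6 tested skeletal muscle markers and 2 of 13 mitochondrial genes. For the cardiomyocyte, ventricular, fibroblast, smooth muscle, endothelial and blood lists, 0 markers passed. The part of these markers in the TNNI1 difference was not tested. Without 549, 1 atrial marker (SLN, a regulator of the calcium pump) was lower by edgeR, and by DESeq2 with all hearts it was again 1 atrial marker lower and 1 adipocyte marker higher. Without the 8 animals with a virus note, 1 atrial marker (SLN) was lower and 0 adipocyte markers were higher, while TNNI1 passed at −1.73 (SE 0.479, adjusted p = 0.0155, edgeR). The other 9 members had adjusted p of 0.384 or more. Among them, ACTA1 had a log2 fold change of −0.75 (SE 0.586), TNNT1 of 0.69 (SE 0.520) and MYH6 of −0.65 (SE 0.644), and TNNT2 of −0.05 (SE 0.203). The median log2 fold change of the members was −0.12, and that of all genes was −0.01.

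As a ratio within a heart, the troponin I pair differed between the years. The log2 ratio of TNNI1 to TNNI3 was −7.40 ± 1.42 (SD) in the 17 hearts of 2016, between −9.52 and −4.23 with a median of −7.49. In the 21 hearts of 2018 it was −9.26 ± 1.65 (SD), between −13.42 and −6.16 with a median of −9.14. The difference was −1.85 (SE 0.507), with p = 0.00068 in a two-sided permutation test and adjusted p = 0.0109 over 16 tests of 4 ratios and 4 covariates. Of the hearts of 2018, 19 of 21 lay below the median of 2016 and 7 lay below every heart of 2016. Leaving out each heart in turn kept the difference between −2.01 and −1.64, with adjusted permutation p of at most 0.0222. Without the 8 animals with a virus note, it was −1.70 (SE 0.525, n = 30, permutation p = 0.00294, adjusted p = 0.0470). With RIN as a further term, the difference was −1.77 (SE 0.520, permutation p = 0.00139, adjusted p = 0.0167).

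The mitochondrial share of counts moved with the year as well, between 17.2% and 35% in RNA of 2016 and between 21.5% and 60.1% in RNA of 2018, and its part in the difference was not tested. Without the 5 hearts of highest mitochondrial share, the difference in the TNNI1 to TNNI3 ratio was −1.51 (SE 0.546, permutation p = 0.00755), and the adjusted p was 0.121. For the other ratios the year differences were −0.32 (SE 0.846) for MYH6 to MYH7, −0.91 (SE 0.638) for ACTA1 to ACTC1 and 0.36 (SE 0.564) for TNNT1 to TNNT2, with adjusted permutation p of 0.817, 0.646 and 0.764.

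**Figure D3:**
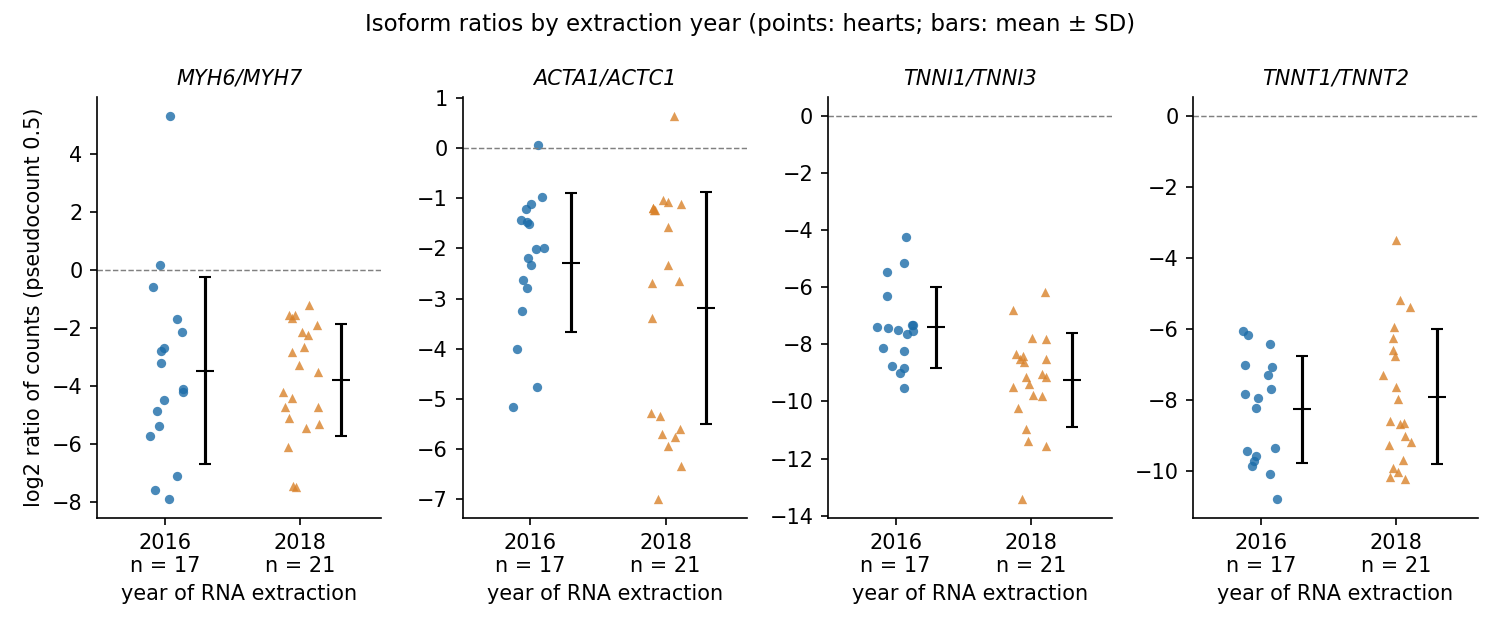
Log2 ratio of counts for the 4 isoform pairs in hearts with RNA of 2016 (blue circles, n = 17) and 2018 (orange triangles, n = 21), with the mean ± SD beside each group and a dashed line at equal counts. The TNNI1 to TNNI3 ratio averaged −7.40 in 2016 and −9.26 in 2018, while the other 3 ratios differed by less than the SD within a year.

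No member was called different between males and females. Of 15392 genes, 35 (0.227%) passed between the sexes, and 0 of the 10 members did by edgeR or by DESeq2, also with 0 at an unadjusted p under 0.05. The largest difference was that of TNNT1, with a log2 fold change in males of −0.95 (SE 0.529, adjusted p = 0.656, edgeR). TNNT1 was between 6.96 and 1015 CPM with a median of 41.4 CPM in the 22 females, and between 15.8 and 139 CPM with a median of 50.4 CPM in the 16 males. The highest level was that of 554_2, a female. The difference between males and females in the 4 ratios had adjusted permutation p between 0.646 and 0.829.

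RIN, the measure of how intact the RNA was, was examined next. No gene of 15392 passed (0%) in edgeR, where 2171 had an unadjusted p under 0.05, while DESeq2 called 184. Of the members, 0 passed with either tool, and 1 had an unadjusted p under 0.05. This was TNNI3, whose log2 level changed by −0.18 per unit of RIN (SE 0.0809, adjusted p = 0.321, edgeR). With the animals with a virus note left out, TNNI3 changed by 0.00045 per unit (SE 0.111, n = 30, p = 0.997, edgeR). TTN, which encodes the largest known protein, changed by 0.01 per unit (SE 0.0926, adjusted p = 0.970). The ratios changed by between −0.11 and 0.23 on the log2 scale per unit of RIN, with adjusted permutation p of 0.753 or more. With the animals with a virus note left out, ACTA1 to ACTC1 changed by 0.59 per unit (SE 0.239, n = 30, permutation p = 0.0454, adjusted p = 0.363). Pearson r with RIN was between −0.05 and 0.22 over 38 hearts (smallest permutation p 0.175, smallest adjusted p over 8 relations 0.426), and Spearman rho was between −0.10 and 0.25 (smallest permutation p 0.135).

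Age at death is the comparison closest to the question of fetal and adult forms, but all animals here were at least 10 years old. In the 34 hearts with an age, 0 of 15215 genes passed (0%) in edgeR, 1127 had an unadjusted p under 0.05 and DESeq2 called 2. No member passed with either tool. TNNT1 was the member with an unadjusted p under 0.05, at −0.52 on the log2 scale per decade (SE 0.185, p = 0.00751, adjusted p = 0.656, edgeR). Without the animals with a virus note, TNNT1 changed by −0.31 per decade (SE 0.182, n = 26, p = 0.0964, edgeR). TNNI1, the fetal form of troponin I, changed by −0.20 per decade (SE 0.179, adjusted p = 0.744).

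The TNNT1 to TNNT2 ratio changed by −0.41 per decade (SE 0.198, n = 34, permutation p = 0.0430, adjusted p = 0.344). The hearts without an age, left out here, include 554_2 (−3.50) and Little_R (−5.19), which had the highest ratios of all. Without the animals with a virus note, the TNNT1 to TNNT2 ratio changed by −0.27 per decade (SE 0.216, n = 26, permutation p = 0.220). Over the 34 hearts, Pearson r of this ratio with age was −0.35 (permutation p = 0.0454) and Spearman rho −0.30 (permutation p = 0.0816), with adjusted p of 0.363 and 0.326 over 8 relations. Without the 2 animals farthest from the median age, r was −0.31. Within RNA of 2016, r was −0.34 (n = 17, permutation p = 0.178), and within RNA of 2018, r was −0.38 (n = 17, permutation p = 0.137). The TNNI1 to TNNI3 ratio changed by −0.01 per decade (SE 0.213, permutation p = 0.978), the MYH6 to MYH7 ratio by 0.42 (SE 0.357) and the ACTA1 to ACTC1 ratio by −0.14 (SE 0.266). Without 549, the MYH6 to MYH7 ratio changed by 0.67 per decade (SE 0.277, n = 33, permutation p = 0.0263, adjusted p = 0.14).

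Of 47 further sarcomere genes listed for their role in thick and thin filaments, the M-band, assembly and splicing, 42 were tested against extraction year, of which 4 were higher and 3 lower in RNA of 2018, a share close to the 15.8% of all genes. The median log2 fold change over the 42 genes was −0.25. TMOD4, a cap of the thin filament in skeletal muscle, was higher with a log2 fold change of 2.28 (SE 0.436, adjusted p = 0.000349, edgeR), at levels of at most 5.21 CPM. The myosin gene MYH7B had a log2 fold change of 1.15 (SE 0.225, adjusted p = 0.000443), the embryonic myosin MYH3 one of 0.79 (SE 0.223, adjusted p = 0.0122) and TNNT3 one of 1.31 (SE 0.408, adjusted p = 0.0242), all by edgeR. MYH3 was at most 9.23 CPM in any heart.

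The lower genes included the atrial MYBPHL (log2 fold change −3.77, SE 0.941, adjusted p = 0.00476, edgeR) and MYL7 (−2.02, SE 0.599, adjusted p = 0.0177). Heart 549, of 2016, held 364 CPM of MYBPHL against at most 4.14 CPM elsewhere. Without 549, MYBPHL was at −0.72 (adjusted p = 0.331) and MYL7 at −0.75 (adjusted p = 0.394), and 5 of the 42 genes were higher and 0 lower, by edgeR. That fit called 2305 of all 15330 genes. Without the 8 animals with a virus note, 3 of 40 genes tested were higher (TMOD4, MYH7B and MYH3) and 0 lower, and TNNT3 was at 1.32 (adjusted p = 0.0575, edgeR). Of all 15234 genes in that fit, 2030 were called. Against sex and RIN, 0 of 42 passed, and against age, 0 of 41.

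Whether the isoform ratios moved together from heart to heart was tested in 14 relations, 6 between ratios, 4 with the log2 summed level of atrial markers and 4 with the mitochondrial share. The ratios of actin and troponin T rose together, so that hearts with more ACTA1 for their ACTC1 also had more TNNT1 for their TNNT2. Pearson r was 0.54 (permutation p = 0.00053, adjusted p = 0.00742, n = 38) and Spearman rho 0.57 (permutation p = 0.00026, adjusted p = 0.00364). Without 724 and 503, the hearts farthest from the median of the ACTA1 to ACTC1 ratio, r was 0.48. Within RNA of 2016, r was 0.59 (n = 17, permutation p = 0.0117, adjusted p = 0.112), and within RNA of 2018, r was 0.58 (n = 21, permutation p = 0.00633, adjusted p = 0.0443).

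Leaving out each heart in turn kept r between 0.51 and 0.64, with adjusted permutation p of at most 0.0125. Little_R lay away from the other hearts, with a low ACTA1 to ACTC1 ratio of −5.34 and a high TNNT1 to TNNT2 ratio of −5.19, and without 537 and Little_R, r was 0.63. On either side of the gap in the ACTA1 to ACTC1 ratio, r was 0.39 in the 28 hearts above it (permutation p = 0.0418) and 0.25 in the 10 hearts below it (permutation p = 0.438).

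**Figure D4:**
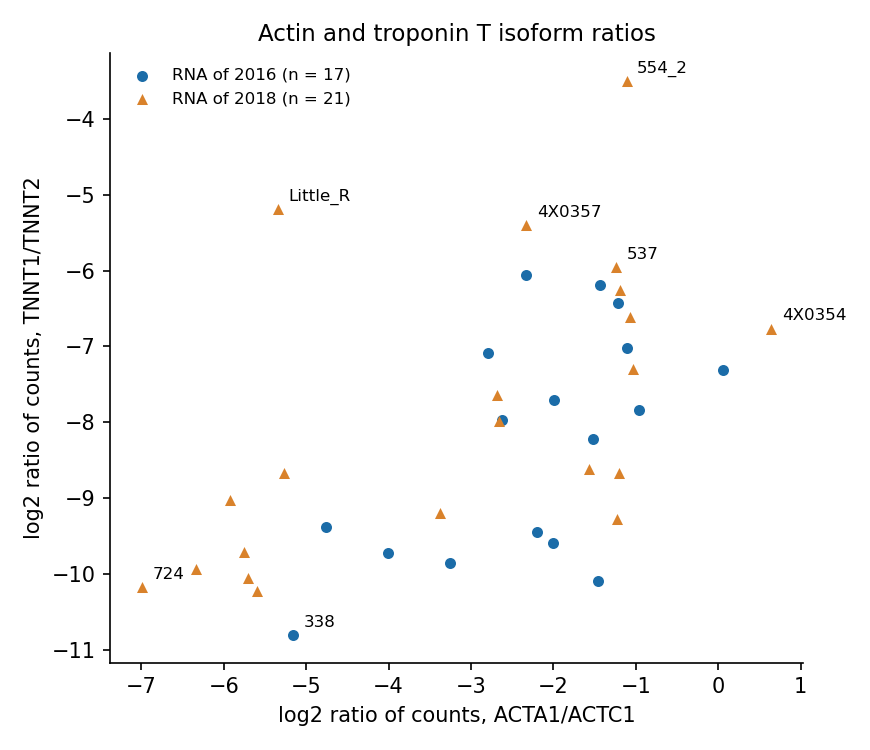
Log2 ratio of TNNT1 to TNNT2 counts against the log2 ratio of ACTA1 to ACTC1 counts, 1 point per heart, blue circles for RNA of 2016 and orange triangles for RNA of 2018. The ratios rise together (r = 0.54), with 554_2 highest in TNNT1 to TNNT2 and Little_R above the other hearts of low ACTA1 to ACTC1.

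The TNNI1 to TNNI3 ratio fell with the mitochondrial share, with Pearson r = −0.51 (permutation p = 0.00119, adjusted p = 0.00833, n = 38) and Spearman rho = −0.36 (permutation p = 0.0252, adjusted p = 0.118). Without 537 and 558, the hearts farthest from the median mitochondrial share, r was −0.45. The relation did not hold within both years, and the difference between the years was not tested. In RNA of 2018, r was −0.51 (n = 21, permutation p = 0.0169, adjusted p = 0.0787), where it was −0.46 without 537 and 558. In RNA of 2016, r was 0.0409 (n = 17, permutation p = 0.876), and it was −0.43 without 4x523 and 4x0025, so this value rested on those hearts. Without the 5 hearts of highest mitochondrial share, r was −0.32 (n = 33, permutation p = 0.0674, adjusted p = 0.236).

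Since 549 lay far from all other hearts in the myosin ratio, relations of that ratio were read over the other 37 hearts. With the ACTA1 to ACTC1 ratio, r was −0.38 (permutation p = 0.0203, adjusted p = 0.0712) and rho −0.40 (permutation p = 0.0135, adjusted p = 0.0632). With the TNNI1 to TNNI3 ratio, r was 0.07 (permutation p = 0.679), and with the TNNT1 to TNNT2 ratio, r was −0.21 (permutation p = 0.215). With the atrial markers, r was −0.52 (permutation p = 0.00078, adjusted p = 0.00364) and rho −0.42 (permutation p = 0.0104, adjusted p = 0.0632), and r was −0.34 without 4X0354 and 4x0519, the hearts with the next highest sums. The list was 16861 CPM in 4X0354 with NPPA, a natriuretic peptide that the ventricle can also make, and 557 CPM without it, so in that heart the sum was almost all NPPA. In 549, it was 33781 CPM without NPPA. Within RNA of 2018, which does not include 549, the myosin ratio had r = −0.59 with the atrial markers (n = 21, permutation p = 0.00419, adjusted p = 0.0443) and r = −0.38 with the ACTA1 to ACTC1 ratio (permutation p = 0.0886). Without 4X0354 and 4X0550, the relation with the atrial markers in RNA of 2018 was r = −0.28. With NPPA left out of the list, r was −0.05 over the 37 hearts (permutation p = 0.748) and rho −0.00284 (permutation p = 0.988), so the negative relation rested on NPPA.

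Variability between hearts was then set against that of other genes of the same level. The negative binomial overdispersion of each gene was compared with a smooth trend on mean expression over 13121 genes, and the residual of its natural logarithm is called dispersion here. Its SE came from redrawing the animals 1000 times. TNNT1 had a dispersion of 2.5 (SE 0.303, rank 114), ACTA1 of 2.32 (SE 0.229, rank 152), MYH6 of 2.30 (SE 0.157, rank 158) and TNNI1 of 2.02 (SE 0.254, rank 293), counting from the most variable gene. These are the minor partners of the 4 pairs.

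The major partners were lower, with ACTC1 at 1.03 (SE 0.245), TNNI3 at 0.68 (SE 0.304), MYH7 at 0.49 (SE 0.388) and TNNT2 at −0.63 (SE 0.357). TTN was at 0.47 (SE 0.328) and MYBPC3 at 0.11 (SE 0.391). In each pair the partners differed by more than the sum of their errors. The median over the 10 members was 0.86, against −0.12 over all genes. Of the members, 9 of 10 lay above the trend, while most of all genes lay below it. With a narrower trend (LOESS span 0.3), the median over the members was 0.40 and 7 of 10 lay above it. Single hearts moved some values. Without 549, the dispersion of MYH7 was 0.0866, and without 554_2 that of TNNT1 was 2.12.

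**Figure D5:**
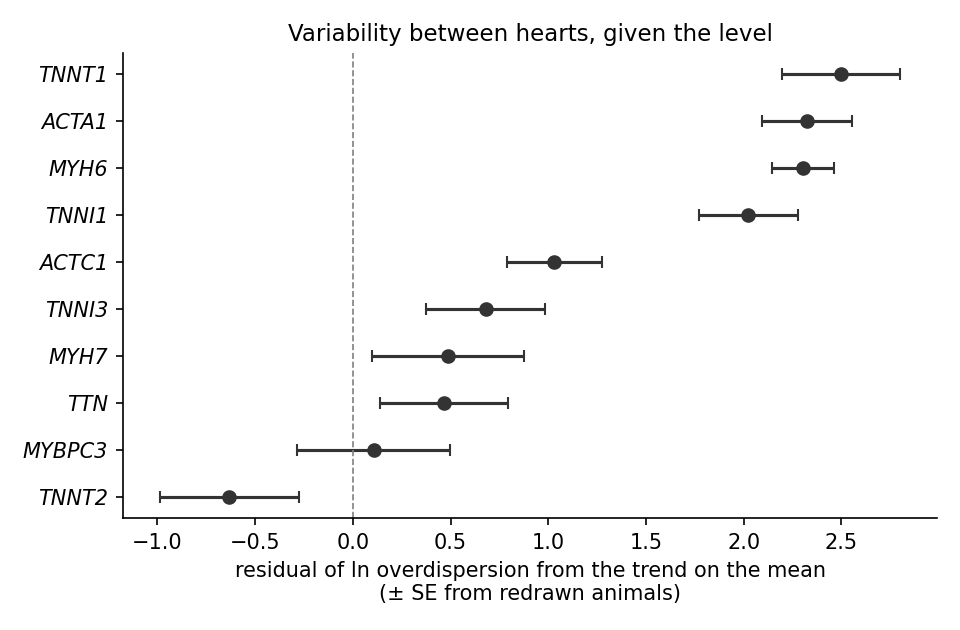
Residual of ln overdispersion from the trend on mean expression for the 10 genes, with bars for the standard error from 1000 redraws of the animals and a dashed line at the trend. TNNT1, ACTA1, MYH6 and TNNI1 lie at 2.02 or above, and TNNT2 lies below the trend at −0.63.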

How the data were processed

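Heart RNA of 38 chimpanzees was analysed as 1 group, with extraction year, sex, RIN and age taken from the study's sample table as covariates. The gene counts and the orthologous exon counts were deposited by the authors as raw counts without normalization, from reads aligned with STAR (2.6.1b in the submitters' processing notes) and, for orthologous exons, counted with featureCounts 1.6.3. A normalized matrix was not used, nor were 52 per-sample columns (49 of them human) that match no sample of this series. The members and gene lists were chosen with earlier results of these data known.

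CPM was scaled by the orthologous exon total, since mitochondrial reads took 17.2% to 60.1% of gene counts. Symbols came from an identifier table. Of the members, 6 were matched to the orthologous exon table by identifiers in the study's supplementary tables. Ratios used log2 counts with a pseudocount of 0.5. Levels were tested with edgeR 4.0.16 (quasi-likelihood test on genes kept by filterByExpr, TMM factors) and again with DESeq2 1.42.0, and ratios with 100000 permutations within extraction year (over all hearts for year and for correlations), two-sided, with Benjamini-Hochberg adjustment and a threshold of 0.05. Dispersion used genes of at least 6 CPM in 1 heart and a LOESS trend (span 0.75, degree 1), with SEs from drawing the animals with replacement 1000 times. Steps were tested on simulated data. R 4.3.3, Python 3.11.15, numpy 2.4.6, scipy 1.17.1, pandas 2.3.3 and matplotlib 3.10.9 were used.

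All members were named, with up to 6 called genes of the sarcomere list per comparison by smallest adjusted p, and for each ratio the 3 genes of highest r and the 3 of lowest r. Marker genes were named where they were near 0 or where a heart stood apart. Alternatives were other library sizes, no filter on low counts, RIN as a term, Yerkes animals alone, each year alone, a LOESS span of 0.3, and leaving out 537 with Little_R or 549. Leaving out each heart for the tests, leaving out the 5 hearts of highest mitochondrial share, leaving out the 8 animals with a virus note, the atrial list without NPPA and the split at the actin gap were added after seeing the data. P-values measure the spread between these hearts, some of which are relatives.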

Additional observations from a re-analysis of the deposited data

How the results depend on the processing

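The number of members called stayed at 0 for sex, RIN and age under every alternative run. By year it was 1, and 0 without 537 and Little_R, without 549 and with Yerkes animals only, where TNNI1 was at −1.69 (adjusted p = 0.113, edgeR), and it was 0 to 1 when each heart was left out. Counts of all genes called moved by year to 3727 with no filter on low counts and 248 in Yerkes animals, and by sex from 35 to 100 with DESeq2 and 53 with no filter. For RIN the 0 calls became 184 with DESeq2, 2 with no filter, 2 with orthologous exon totals, 4 with non-mitochondrial totals and 0 to 152 when each heart was left out (152 without 558). For age they became 2 with DESeq2, 6 with no filter and 0 to 2 when each heart was left out.

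Of 136 alternatives to the 16 tests of ratios, 135 kept their side of the threshold, and the exception was TNNI1 to TNNI3 by year without the 5 hearts of highest mitochondrial share (−1.51). On either side of the actin gap, p of the relation of ACTA1 to ACTC1 with TNNT1 to TNNT2 was not adjusted. Above the gap, r was 0.39 (n = 28, permutation p = 0.0418), and below it 0.25 (n = 10, permutation p = 0.438). Otherwise the relation was past the threshold except in RNA of 2016 alone (r = 0.59, n = 17). The mitochondrial share with TNNI1 to TNNI3 missed it in RNA of 2018 (r = −0.51), was near 0 in RNA of 2016 (r = 0.0409, and −0.43 without 4x523 and 4x0025) and missed it without the 5 hearts of highest share (r = −0.32). The atrial markers with MYH6 to MYH7 were at r = 0.00078 over all 38 hearts, −0.52 without 549 and −0.59 in RNA of 2018 alone, and between −0.52 and 0.11 when each heart was left out. Without NPPA, the atrial markers reached r = 0.41 with MYH6 to MYH7 (adjusted p = 0.0532 by permutation), or −0.05 without 549. Without NPPA they passed the threshold with TNNI1 to TNNI3 at r = 0.55 (0.43 without 549) and with TNNT1 to TNNT2 at −0.39 (−0.41 without 549), and with NPPA they passed with TNNI1 to TNNI3 at 0.59 without the 8 animals with a virus note. When each heart was left out, r of the atrial markers with TNNI1 to TNNI3 was between 0.0422 and 0.54, and r of MYH6 to MYH7 with ACTA1 to ACTC1 between −0.44 and −0.32, where it passed the threshold only without 724. The causes were not tested.

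With a LOESS span of 0.3, dispersion was 1.87 for MYH6, −0.0104 for MYH7, 1.92 for ACTA1, 0.56 for ACTC1, 0.24 for TNNI3, −1.11 for TNNT2, −0.35 for MYBPC3 and 0.0210 for TTN. With the total of the gene counts it was 1.99 for MYH6, 2.0 for ACTA1 and 0.25 for TNNI3, and with TMM 2.04 for MYH6 and 2.09 for ACTA1. Without 537 and Little_R it was 2.66 for MYH6, 2.61 for ACTA1 and 1.10 for TNNI3. Leaving out each heart gave 0.0866 to 0.51 for MYH7, 0.37 to 0.71 for TNNI3 and 2.12 to 2.52 for TNNT1. Scaled by the total of the gene counts, mean CPM was 8077 for TNNT2 and 3991 for MYBPC3. Depth limits TNNI1 most, since its lowest count was 14. No paired analysis was possible because the samples form a single group.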
